A study of Mus musculus with 11 samples.

Results

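The nuclear-encoded subunits of the respiratory chain and of the ATP synthase were followed in ventricular myocardium of mice under pressure load. Members were the protein-coding genes whose symbols mark them as subunits of complex I (Nduf), complex II (Sdh), complex III (Uqcr), complex IV (Cox4 to Cox8) or complex V (Atp5), with Ndufa4 and its relative Ndufa4l2 counted in complex IV and assembly factors and pseudogenes left out. There were 84 members among the 46517 genes of the count table, 35 of complex I, 4 of complex II, 8 of complex III, 20 of complex IV and 17 of complex V. By role 21 were core subunits, which have counterparts in bacterial enzymes and carry out electron transfer, catalysis or rotation, 60 were accessory subunits and 3 were associated proteins (Cox7a2l, Ndufa4l2 and Atp5s). A filter on low counts kept 83, and Cox8c, a testis form of a complex IV subunit, had 0 counts in all 11 libraries and was not tested.

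Bulk RNA came from 4 groups: 3 KO TAC, 3 WT TAC, 3 KO sham and 2 WT sham libraries. KO mice carried Tnnt2-Cre, a recombinase driven by the promoter of cardiac troponin T, with floxed alleles of Lmnb2, the gene of lamin B2. Control mice, here WT, are described as carrying Tnnt2-Cre as well, which would give every group the Cre. The genotype label of WT sham 2 reads WT, where the other WT libraries have Lmnb2 WT, and no label gives the Cre for a single mouse. TAC is a suture around the aortic arch that narrows it and loads the heart, and sham mice were operated on without it. Surgery was at 10 to 12 weeks of age, and no source used here gives the interval to sampling.

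Background helps to read the members. Complex I takes electrons from NADH and complex II from succinate, both pass them through ubiquinone to complex III, and cytochrome c carries them on to complex IV, where oxygen is reduced. Complexes I, III and IV pump protons across the inner mitochondrial membrane, and complex V uses their return to make ATP. Heart muscle draws most of its ATP from this pathway, and the core of complexes I, III and V is shared between the nuclear and the mitochondrial genome. The core of complex IV is encoded by mitochondrial DNA, so that its nuclear subunits are accessory, and several come as a pair of isoforms, one of heart and skeletal muscle and one found in most tissues.

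The libraries differed within groups. Total counts ran from 1.48e+07 to 1.73e+07. Mitochondrially encoded genes took 32.8% to 49.4% of all counts in sham libraries and 13.2% to 35.9% in TAC libraries. Counts of nuclear genes ran from 8.00e+06 (KO sham 1) to 1.42e+07 (WT TAC 1). Messenger RNAs of cytoplasmic ribosomal proteins took 1.31%, 4.25% and 4.01% of nuclear counts in KO TAC 1 to 3, 7.62%, 4.98% and 1.86% in WT TAC 1 to 3, 3.12%, 1.42% and 2.26% in KO sham 1 to 3, with 2.18% and 1.23% in WT sham 1 and 2. KO TAC 1 and WT TAC 3 stood apart from the other TAC libraries in this share. Summed CPM (counts scaled to 1000000 per library, after scaling by the trimmed mean of M-values, TMM) of 13 cardiomyocyte markers ran from 57090 to 72910 in TAC libraries, against 81390 to 109300 in sham libraries. In bulk tissue fewer cells of a type and less RNA per cell cannot be told apart. Lmnb2 measured 9.72, 3.24 and 4.46 CPM in KO TAC, 2.86, 2.16 and 6.70 CPM in WT TAC, 0.649, 1.81 and 2.43 CPM in the 3 KO sham and 4.44 and 3.86 CPM in the 2 WT sham libraries. It was not lower after TAC in the libraries labelled KO, so directions for KO below refer to those labels.

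Promoter sequences are shown first because many members are described as targets of NRF1, of ETS factors such as GABP and of YY1. Windows of 250 bases before to 50 bases after the start, taken from RefSeq on GRCm38.p6, were found for 66 of the 84 members. Sdha and Uqcrc1 were among the members that fell most and hold NRF1 letters, Cox6a1 is the isoform of most tissues with 2 kinds of motif, and Cox7a1 is a muscle isoform with none of those searched. Cox7a2, the form of most tissues beside Cox7a1, also had none of them. Cox6a2, the muscle form beside Cox6a1, had no window, so these examples show no contrast between muscle forms and the others. The strand is minus for Sdha (chr13:74350191-74350490) and Cox6a1 (chr5:115348909-115349208), and plus for Uqcrc1 (chr9:108936398-108936697) and Cox7a1 (chr7:30183921-30184220). Capitals mark the NRF1 letters (GCGCA and GCGC with any base between them) and the ETS letters CCGGAAG, read on both strands, and no marked motifs overlap.
Sdha: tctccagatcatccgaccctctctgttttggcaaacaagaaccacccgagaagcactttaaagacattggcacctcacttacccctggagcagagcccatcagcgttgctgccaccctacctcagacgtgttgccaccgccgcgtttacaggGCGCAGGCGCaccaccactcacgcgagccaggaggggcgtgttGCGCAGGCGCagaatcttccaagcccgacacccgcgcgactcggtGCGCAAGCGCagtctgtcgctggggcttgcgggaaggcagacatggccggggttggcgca
Uqcrc1: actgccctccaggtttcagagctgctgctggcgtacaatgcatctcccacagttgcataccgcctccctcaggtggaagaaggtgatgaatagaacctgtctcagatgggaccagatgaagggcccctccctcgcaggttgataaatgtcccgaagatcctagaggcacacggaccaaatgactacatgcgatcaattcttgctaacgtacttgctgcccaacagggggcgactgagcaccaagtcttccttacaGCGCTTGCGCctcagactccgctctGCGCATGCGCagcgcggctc
Cox6a1: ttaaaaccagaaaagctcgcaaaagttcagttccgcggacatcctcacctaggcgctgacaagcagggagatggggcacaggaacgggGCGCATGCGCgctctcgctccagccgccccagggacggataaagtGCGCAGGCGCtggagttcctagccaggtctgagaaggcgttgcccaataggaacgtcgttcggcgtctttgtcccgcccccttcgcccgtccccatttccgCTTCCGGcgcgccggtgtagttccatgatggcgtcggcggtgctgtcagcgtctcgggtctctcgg
Cox7a1: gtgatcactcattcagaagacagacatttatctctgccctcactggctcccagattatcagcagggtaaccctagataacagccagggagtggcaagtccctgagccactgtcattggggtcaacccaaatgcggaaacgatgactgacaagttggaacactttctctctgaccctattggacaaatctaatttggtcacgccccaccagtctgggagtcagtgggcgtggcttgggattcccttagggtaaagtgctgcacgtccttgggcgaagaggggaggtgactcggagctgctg

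The NRF1 letters were in 16 of 66 member promoters (24.2%), against 4.78% of 27025 gene promoters of the same length. ETS letters were in 15 members (22.7%), against 9.12% of all, and the YY1 letters AAGATGGCG were in 6 members (9.09%), against 1.49%. At least 1 of the 3 was in 32 members (48.5%), against 14% of all promoters. By class it was in 9 of 16 core and 23 of 49 accessory members, and in 6 of the 10 members with a window that fell after TAC, described next. The NRF1 letters alone were in 2 of these 10 (20%), Sdha and Uqcrc1, which is near the 24.2% of all members. A match describes the letters in this window only. Neither Nrf1 nor Yy1 nor Gabpa, the genes of these factors, passed the test in TAC against sham.

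Aortic constriction was first compared with sham over both genotypes, in an additive fit with terms for genotype and surgery. In that fit 14 of the 83 members fell after TAC and 0 rose, read against 8.96% of all 14619 genes tested that were lower and 10.6% that were higher, 19.5% in all (edgeR quasi-likelihood test, Benjamini-Hochberg adjusted p under 0.05). The fallers were 8 of 35 members of complex I, 3 of 4 of complex II, 1 of 8 of complex III, 0 of 19 of complex IV and 2 of 17 of complex V. They were 10 of 21 core and 4 of 59 accessory subunits. The median log2 fold change in this fit was -0.56 in core and -0.03 in accessory subunits. A call depends on the spread between libraries as well as on the size of the change. Cox7a1, at -0.86 with a standard error of 0.56, was not called, while Ndufa10, at -0.68 with 0.16, was. Whether the classes differ was not tested, since members share their libraries. At an unadjusted p under 0.05, 18 members were lower and 0 higher, against 2277 lower and 2571 higher of all 14619 genes. The count of 14 was 2 with library totals in place of TMM (2.63% of all genes lower). With a term for the share of ribosomal protein genes in all counts, mitochondrial ones included, it was 67 (8.76% of all genes lower). With that term 0 members were called higher. The share averaged higher after TAC than after sham, so the count with it describes TAC against sham at equal share.

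Ndufs1 (ENSMUSG00000025968; GRCm38 chromosome 1, 63143596 to 63176833, minus strand), the largest core subunit of complex I, holds iron-sulfur clusters of the electron path. It measured 495, 393 and 383 CPM in KO TAC, 311, 298 and 479 CPM in WT TAC, 790, 892 and 806 CPM in KO sham, and 855 and 938 CPM in WT sham. Every TAC library was below every sham library. The log2 fold change was -1.12 ± 0.19 (standard error; adjusted p = 0.0017).

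Ndufv1, which binds NADH and flavin in the same complex, measured 303, 351 and 333 CPM in KO TAC, 367, 432 and 348 CPM in WT TAC, 666, 563 and 583 CPM in KO sham, and 725 and 461 CPM in WT sham. The TAC and sham libraries did not overlap, and the change was -0.77 ± 0.18 (adjusted p = 0.0109). Ndufs3 changed by -0.68 ± 0.19 (adjusted p = 0.0213) and Ndufs7, near the ubiquinone site, by -0.74 ± 0.23 (adjusted p = 0.041), without overlap in Ndufs3 and with WT sham 2 among the TAC libraries in Ndufs7. The core subunit Ndufs8 had a log2 fold change of -0.45 and Ndufv2 of -0.04, and neither passed.

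Of the 28 accessory subunits of complex I, 3 fell, beside 8.96% of all genes lower in this fit. Ndufa10, which lies on the matrix side, measured 377, 396 and 350 CPM in KO TAC, 352, 423 and 362 CPM in WT TAC, 597, 554 and 602 CPM in KO sham, and 635 and 610 CPM in WT sham. The groups did not overlap, and the change was -0.68 ± 0.16 (adjusted p = 0.0101). Ndufa9 changed by -0.60 ± 0.18 (adjusted p = 0.0326), without overlap. Ndufa12 changed by -0.79 ± 0.23 (adjusted p = 0.0274), and its WT sham 2 library, at 116 CPM, lay below the TAC libraries KO TAC 2 and WT TAC 2, both at 118 CPM. The other 25 had log2 fold changes from -0.58 (Ndufa5) to 0.50 (Ndufa11).

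Complex II, which also serves the tricarboxylic acid cycle, has only nuclear subunits. Sdha (ENSMUSG00000021577; GRCm38 chromosome 13, 74322254 to 74350280, minus strand), its flavoprotein, measured 835, 542 and 505 CPM in KO TAC, 555, 404 and 714 CPM in WT TAC, 1198, 1550 and 1270 CPM in KO sham, and 1359 and 1470 CPM in WT sham. In CPM the highest TAC library was well below the lowest sham library. Its change, -1.21 ± 0.21 (adjusted p = 0.00208), was the largest fall among the 14.

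Sdhb, the iron-sulfur subunit, measured 474, 714 and 675 CPM in KO TAC, 667, 856 and 496 CPM in WT TAC, 1226, 921 and 1102 CPM in KO sham, and 1229 and 829 CPM in WT sham. WT TAC 2 exceeded WT sham 2, and the change was -0.72 ± 0.21 (adjusted p = 0.032). The membrane anchor Sdhc changed by -0.71 ± 0.23 (adjusted p = 0.0494), with some overlap of TAC and sham libraries. The other anchor, Sdhd, did not pass, with a log2 fold change of 0.24 ± 0.44 (adjusted p = 0.739) and 291, 916 and 1161 CPM in KO TAC, 1783, 1445 and 421 CPM in WT TAC, 1106, 491 and 974 CPM in KO sham, and 964 and 523 CPM in WT sham. Its highest and lowest libraries were both from TAC hearts.

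In complex III the faller was Uqcrc1 (ENSMUSG00000025651; GRCm38 chromosome 9, 108936633 to 108949623, plus strand), a large accessory protein on the matrix side. It measured 435, 471 and 462 CPM in KO TAC, 355, 613 and 457 CPM in WT TAC, 875, 759 and 895 CPM in KO sham, and 1046 and 668 CPM in WT sham, without overlap. The change was -0.87 ± 0.20 (adjusted p = 0.00856). The Rieske iron-sulfur protein Uqcrfs1, the nuclear core subunit of this complex in the symbol rule, had a log2 fold change of -0.36 (adjusted p = 0.331). The other 6 ran from -0.30 (Uqcrc2) to 0.56 (Uqcr10).

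In complex V both catalytic subunits of the F1 head fell. Atp5a1, the alpha subunit, measured 2491, 2127 and 2075 CPM in KO TAC, 2138, 2351 and 2526 CPM in WT TAC, 3889, 4331 and 3880 CPM in KO sham, and 4519 and 4024 CPM in WT sham, without overlap. Its change was -0.86 ± 0.17 (adjusted p = 0.00386). Atp5b, the beta subunit, averaged 3391 ± 467 CPM in KO TAC and 3818 ± 512 CPM in WT TAC (SD, n = 3 each), against 5357 ± 296 CPM in KO sham (n = 3) and 5482 ± 556 CPM in WT sham (n = 2), and changed by -0.60 ± 0.18 (adjusted p = 0.0331). The gamma subunit Atp5c1, which turns inside the head, had a log2 fold change of -0.23 (adjusted p = 0.654) and the delta subunit Atp5d of -0.56 (adjusted p = 0.0854). The 3 genes of the membrane ring, Atp5g1, Atp5g2 and Atp5g3, ran from -0.31 to -0.06. None of the 7 accessory subunits of this complex passed, and they ran from -0.14 (Atp5j) to 0.94 (Atp5l, with 320 counts in all libraries together).

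Over all TAC and all sham libraries 10 of the 83 members did not overlap in CPM, all lower after TAC, beside 7.01% of all genes lower and 6.58% higher. Each of the 14 fallers had a negative log2 fold change in each of the 19 other settings of scaling, test, filter, covariate and library choice. Ndufs1 and Sdha kept an adjusted p under 0.05 in all 19, and Atp5a1 and Uqcrc1 in all but the scaling by library totals. Without WT sham 1 the count was 5 (4.47% of all genes lower), and without KO sham 1, KO sham 3 or KO TAC 2 it was 7 (7.53%), 8 (6.6%) or 9 (5.63%). Beside these falls 5 of the 13 cardiomyocyte markers fell, among them Atp2a2, which pumps calcium into the sarcoplasmic reticulum, at -1.46 (adjusted p = 0.00256) and Tnni3, cardiac troponin I, at -1.22 (adjusted p = 0.00193). The part of fewer cardiomyocytes in the falls of the members was not tested.

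**Figure D1:**
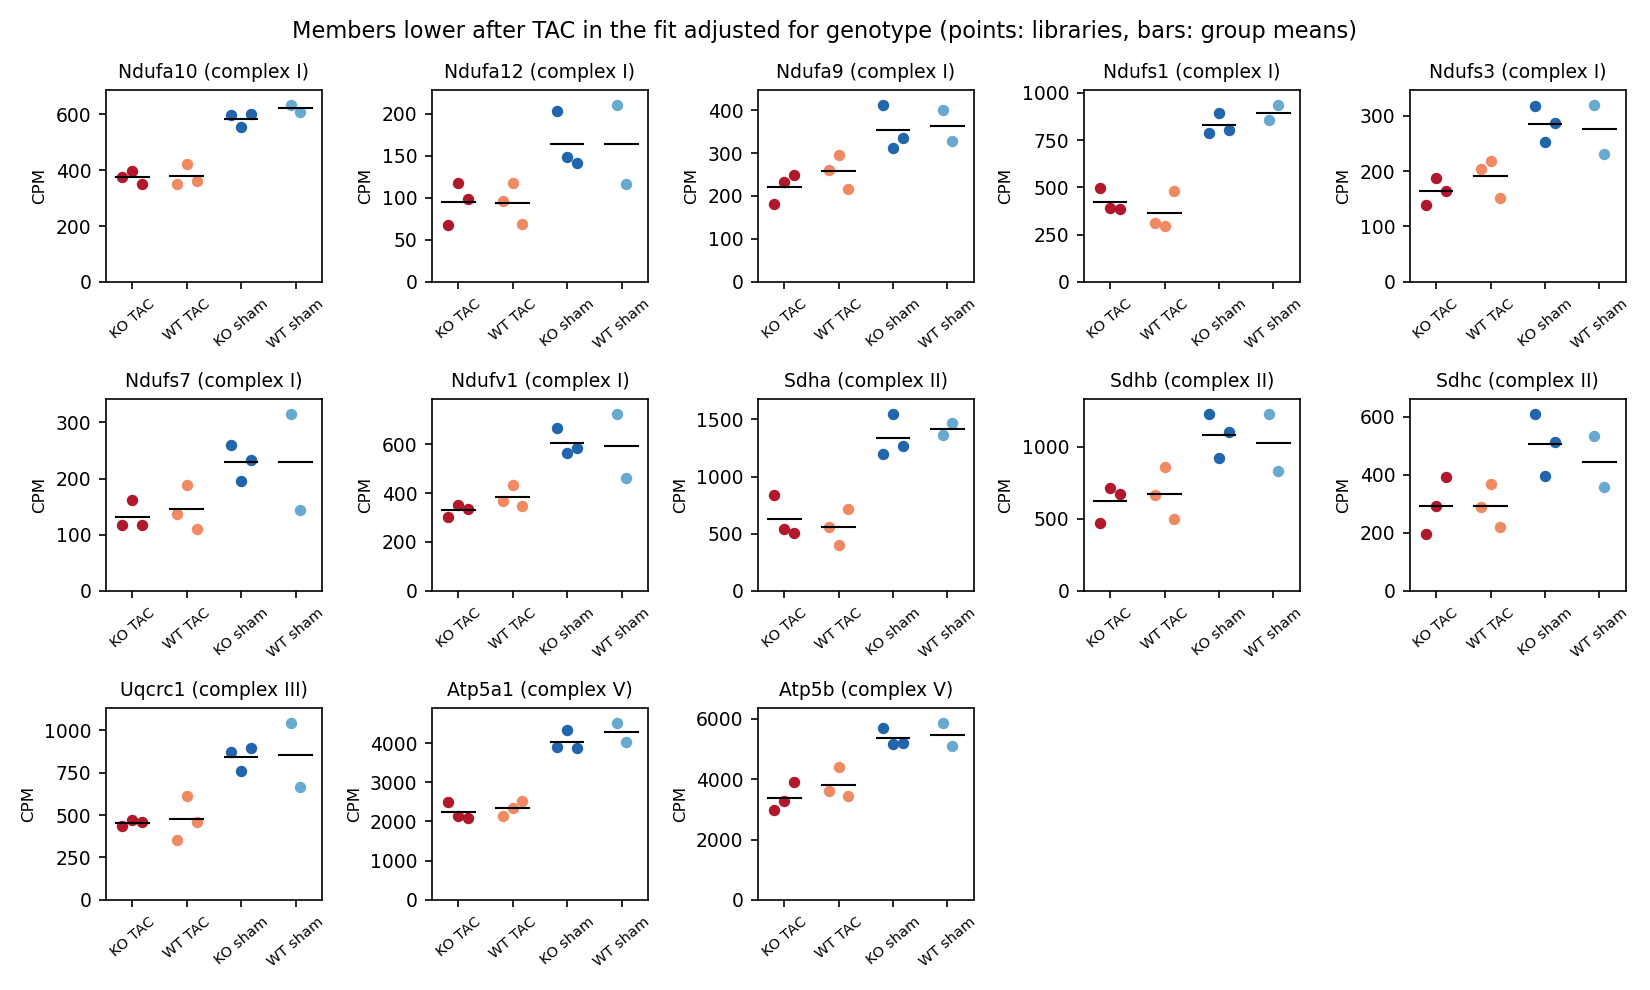
CPM of 13 members that fell after TAC in the fit adjusted for genotype, 1 panel a gene, with a point for each library and a bar for each group mean. The TAC groups, on the left of each panel, lie below the sham groups. In 9 panels no TAC library reaches the lowest sham library.

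Within the genotypes the test had fewer libraries to go by. In WT, 2 of 83 members fell after TAC and 0 rose, beside 3.04% of all genes lower and 3.88% higher (6.92% called). They were Sdha, at -1.34 ± 0.33 (edgeR adjusted p = 0.0325), and Ndufs1, at -1.30 ± 0.29 (adjusted p = 0.0232). Neither call was made without WT TAC 1, WT TAC 2, WT sham 1 or WT sham 2, and Sdha was also not called without KO sham 3 or KO TAC 2. In KO, 0 members passed, beside 1.37% of all genes lower and 3.32% higher (4.70% called). At an unadjusted p under 0.05 in KO, 16 members were lower and 0 higher, against 1181 lower and 1640 higher of all 14619 genes, and DESeq2 called 10 lower, beside 3.77% of all genes. Ndufs1 had -0.97 ± 0.27 (adjusted p = 0.0603) and Sdha -1.09 ± 0.30 (adjusted p = 0.0604) in KO.

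The direction of the estimates differed between core and accessory subunits in WT more than in KO. The median log2 fold change of core subunits was -0.66 in KO and -0.47 in WT, and that of accessory subunits -0.47 in KO and 0.54 in WT. All genes tested had medians of 0.03 in KO and 0.05 in WT. Over all 83 members the median was -0.53 in KO and 0.16 in WT, and with 1 library left out the WT value ran from -0.12 (without WT TAC 1) to 0.74 (without WT sham 1). All 35 members of complex I, all 4 of complex II and all 8 of complex III were negative in KO. Of the 21 core subunits 14 were negative in both genotypes and 7 were positive in WT and negative in KO. Of the 59 accessory subunits 15 were negative in both, 3 were positive in both, 39 were positive in WT and negative in KO, and 2 were the reverse. Of all 14619 genes tested 5190 were negative in both, 5744 positive in both, 1871 positive in WT and negative in KO, and 1812 the reverse. The median of complex I was -0.58 in KO and 0.16 in WT, and that of complex II was -0.80 in KO and -0.61 in WT. It was -0.54 in KO and 0.21 in WT for complex III, -0.40 in KO and 0.08 in WT for complex IV, and -0.53 in KO and 0.46 in WT for complex V.

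The accessory subunits with positive estimates in WT had a wide spread between libraries, and none of them passed. Uqcr10, a small subunit of complex III, measured 119, 598 and 561 CPM in KO TAC, 2214, 1131 and 252 CPM in WT TAC, 806, 240 and 508 CPM in KO sham, and 533 and 196 CPM in WT sham. WT TAC 1 was high and KO TAC 1 low, and the groups overlapped. The log2 fold change was 1.72 ± 0.89 in WT (adjusted p = 0.243) and -0.28 ± 0.74 in KO (adjusted p = 0.898). Ndufa7 had 1.58 ± 0.90 in WT (adjusted p = 0.29) and Atp5l 1.75 ± 0.76 (adjusted p = 0.171). Without KO TAC 1 and WT TAC 3 together, 20 of 59 accessory and 1 of 21 core subunits were called higher in WT (33.9% of accessory members, against 16% of all genes) and 3 core subunits lower. These libraries had the lowest summed accessory levels of the TAC libraries. Leaving out WT TAC 3 thus raises the WT TAC mean of the accessory subunits by itself, and the count is no separate evidence of a rise.

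**Figure D2:**
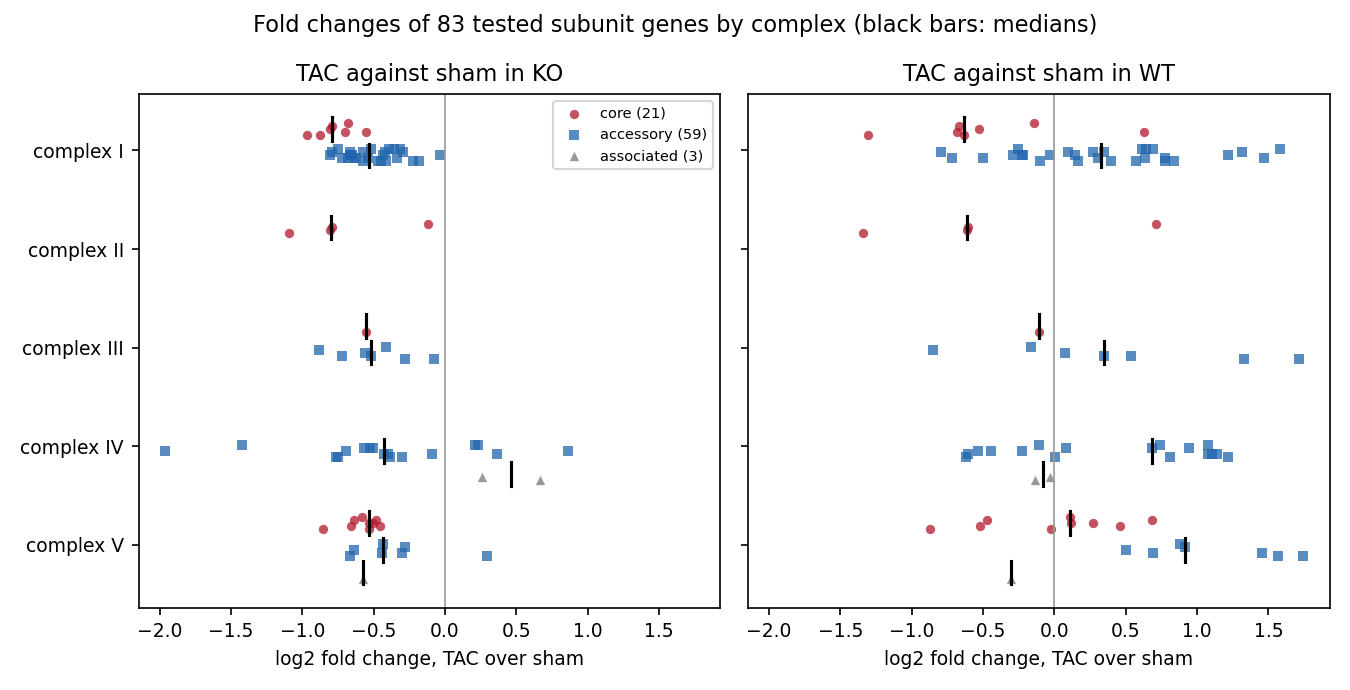
Log2 fold change of TAC over sham in KO (left) and in WT (right) for the 83 tested members, by complex and class, with a black bar at each median. In KO 76 of 83 points lie left of 0, while in WT the core subunits of complexes I and II lie mostly left of 0 and the accessory subunits are spread from -0.85 to 1.75.

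The main fit called no member between the genotypes, with 2 or 3 libraries a group. In KO against WT after TAC, after sham and in the interaction, which asks whether the TAC response differed between genotypes, 0 of 83 members passed, as did 0 of 14619 genes (0.00%) with edgeR. At an unadjusted p under 0.05 the member counts were 0 after sham, 1 after TAC (Atp5l, lower in KO, with 11, 26 and 27 counts in KO TAC and 98, 66 and 23 counts in WT TAC) and 0 in the interaction. DESeq2 called no member in these 3 comparisons. The median log2 difference of KO from WT over the members was -0.49 after TAC, with 75 of 83 negative, and 0.27 after sham, with 70 of 83 positive. With 1 library left out the median after sham ran from -0.08 (without WT sham 2) to 0.77 (without WT sham 1), so it depends strongly on each of the 2 WT sham libraries. WT sham 2 has the other genotype label and also the lowest ribosomal protein share of nuclear counts (1.23%). The part of either was not tested. The median of the interaction was -0.77, and -0.082 with a term for the ribosomal protein share. That term used the share in all counts, mitochondrial ones included. The share averaged 2.37% in KO TAC and 3.95% in WT TAC, and 1.31% in KO sham and 1.04% in WT sham. Its part in these medians was not tested.

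**Figure D3:**
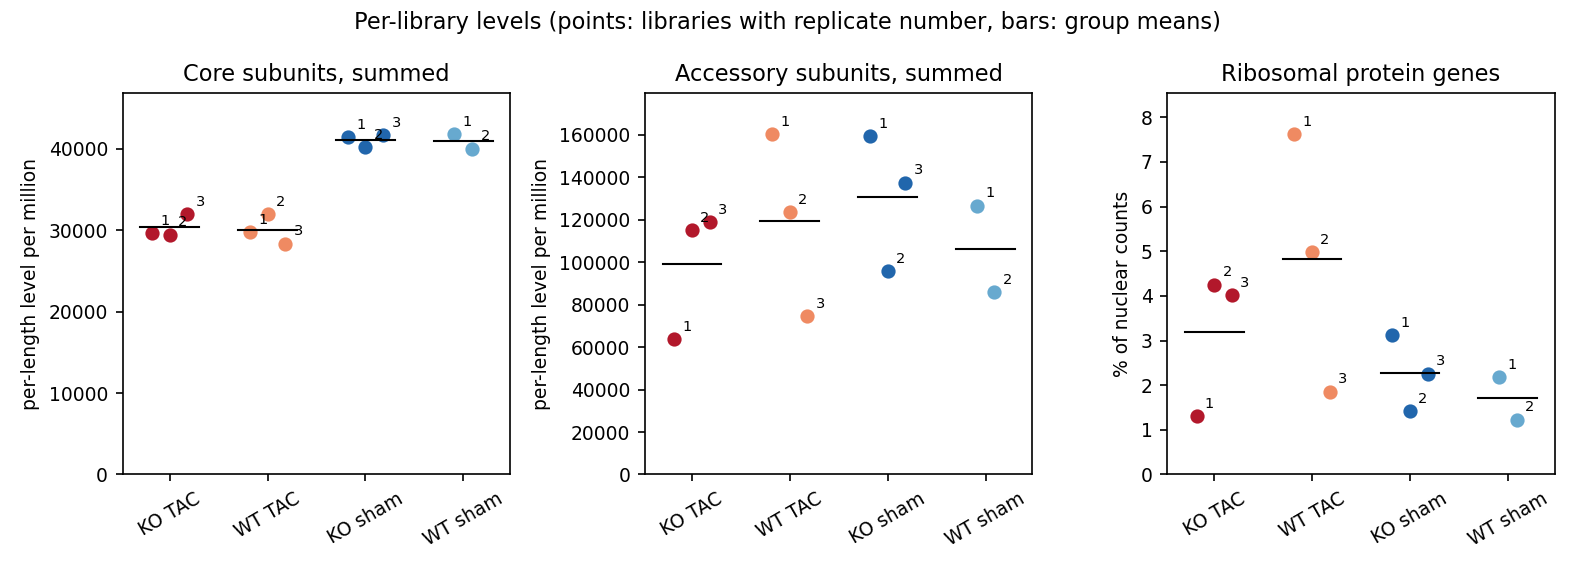
Summed per-length levels of core (left) and accessory (middle) subunits and the percent of nuclear counts in ribosomal protein genes (right), with a numbered point for each library and a bar for each group mean. Core sums of the 6 TAC libraries lie below those of the 5 sham libraries, while accessory sums overlap and are highest in WT TAC 1 and KO sham 1.

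Per-length levels are counts per kilobase of summed exons, scaled to 1000000 over nuclear protein-coding genes within a library. They allow members to be summed, and compared with each other as far as summed exons match the transcripts counted. The 21 core subunits summed to 29650, 29470 and 31960 in KO TAC, 29770, 31970 and 28350 in WT TAC, 41470, 40190 and 41670 in KO sham, and 41780 and 40020 in WT sham. The TAC libraries lay below the sham libraries with a wide gap and little spread, and the genotypes overlapped. The accessory subunits summed to 63590, 115100 and 118800 in KO TAC, 160100, 123400 and 74660 in WT TAC, 159200, 95810 and 137400 in KO sham, and 126500 and 85740 in WT sham. These overlapped between all groups, and within each group the library with the lowest ribosomal protein share had the lowest accessory sum.

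Of the single core members on this scale, Sdha averaged 778 ± 462 in KO TAC and 538 ± 330 in WT TAC (SD, n = 3 each), against 1369 ± 420 in KO sham (n = 3) and 1543 ± 396 in WT sham (n = 2). Ndufs1 averaged 261 ± 117 in KO TAC and 181 ± 116 in WT TAC, against 429 ± 99.9 in KO sham and 499 ± 133 in WT sham. Both genes had no overlap in CPM, but in KO their means ± SD overlapped between TAC and sham on this scale. Uqcrfs1, whose CPM overlapped, averaged 1936 ± 26.1 in KO TAC and 1899 ± 106 in WT TAC, against 2507 ± 52.6 in KO sham and 2581 ± 80.1 in WT sham. These per-length values are given with no test.

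Over the 11 libraries pooled the highest mean per-length levels were those of the muscle isoforms Cox7a1 (8689) and Cox6a2 (7879) of complex IV, but the order differed between groups. All ranks here rest on summed exons as the length. These measured 1237 bases in Uqcrh and 1550 in Cox4i1, where the transcripts with the longest coding sequence had 547 and 765. In Cox7a1 the values were 535 and 485, and in Cox6a2 both were 680. Ranks by transcript length were not computed and may differ. Cox7a1 averaged 5668 ± 2902 in KO TAC and 6362 ± 2730 in WT TAC, against 13960 ± 6057 in KO sham and 8797 ± 4836 in WT sham, and its order against Cox6a2 lay within the spread. The highest group mean was that of Cox6a2 in KO TAC (7096 ± 626), of Cox6b1 in WT TAC (7893 ± 3506), of Cox7a1 in KO sham and of Cox6a2 in WT sham (9267 ± 2191). In the other complexes the highest core and accessory members were Ndufv2 (1739) and Ndufb9 (3971) in complex I, Uqcrfs1 (2199) and Uqcrh (5338) in complex III, and Atp5c1 (4440) and Atp5h (3321) in complex V, all as mean per-length levels. Atp5c1, Atp5b (4421) and Atp5a1 (4311) could not be ranked beyond their spread. In complex II Sdhd was highest at 2866. At the other end, Cox7b2 and Cox6b2, forms known from testis, had 45 and 175 counts in all libraries together. Cox6b2 had the largest negative estimate in KO, -1.96 ± 0.95 (adjusted p = 0.292), and Cox7b2 the largest positive one, 0.86 ± 1.60 (adjusted p = 0.849).

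Complex IV had no member that passed, but its isoforms gave ratios within a library that do not depend on scaling between libraries. Such ratios can still depend on the mix of cells. In bulk tissue a changed mix cannot be told apart from a change within muscle cells, and its part was not tested. For 7 pairs the log2 ratio of counts was compared between TAC and sham by exact 2-sided permutation of the surgery label within genotype, with 200 arrangements, a smallest p of 0.005, and Benjamini-Hochberg adjustment over the 7. Cox6a2 and Cox6a1 are the muscle form and the form of most tissues of subunit VIa. Their log2 ratio was 3.83, 3.38 and 3.43 in KO TAC, 2.38, 2.97 and 3.82 in WT TAC, 4.52, 4.66 and 4.35 in KO sham, and 4.61 and 4.72 in WT sham. Every TAC library was below every sham library. The difference was -1.28 (exact permutation p = 0.01, adjusted p = 0.035), with -0.96 in KO and -1.61 in WT. Among TAC libraries the ratio was highest in KO TAC 1 and WT TAC 3, those with the lowest ribosomal protein share, whose part was not tested.

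Cox7a1 and Cox7a2 are the corresponding forms of subunit VIIa. Their log2 ratio was 0.06, 0.33 and 0.60 in KO TAC, -0.35, 0.50 and 0.14 in WT TAC, 1.57, 0.95 and 1.79 in KO sham, and 1.48 and 0.83 in WT sham, again without overlap. The difference was -1.08 (exact permutation p = 0.005, the smallest possible, adjusted p = 0.035), with -1.11 in KO and -1.06 in WT. For Cox8b over Cox8a, the muscle form and the form of most tissues of subunit VIII, the difference was -0.85 (p = 0.03, adjusted p = 0.07 in the exact permutation test), and KO sham 2 overlapped with the TAC libraries.

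The genes behind these ratios did not pass on their own. In the fit adjusted for genotype Cox6a2 had a log2 fold change of -0.70 ± 0.24 (edgeR adjusted p = 0.0588) and Cox6a1 of 0.60 ± 0.34 (adjusted p = 0.237). Cox7a1 had -0.86 ± 0.56 (adjusted p = 0.306) and Cox7a2 0.35 ± 0.53 (adjusted p = 0.689), and Cox8b had -0.42 and Cox8a 0.44. With a term for the ribosomal protein share Cox7a2 had -1.02. In the exact permutation test the other 4 pairs gave adjusted p-values of 0.254 to 1: Cox4i2, the lung and hypoxia form, over Cox4i1 differed by -0.05, Ndufa4l2, a hypoxia-induced relative, over Ndufa4 by -0.004, Atp5g1 over Atp5g3 by -0.12, and Atp5g2 over Atp5g3 by 0.21. Cox7a2l, which joins complexes III and IV, had the second largest positive estimate of the members in KO, at 0.67 ± 0.37 (edgeR adjusted p = 0.363), and -0.13 ± 0.41 in WT.

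**Figure D4:**
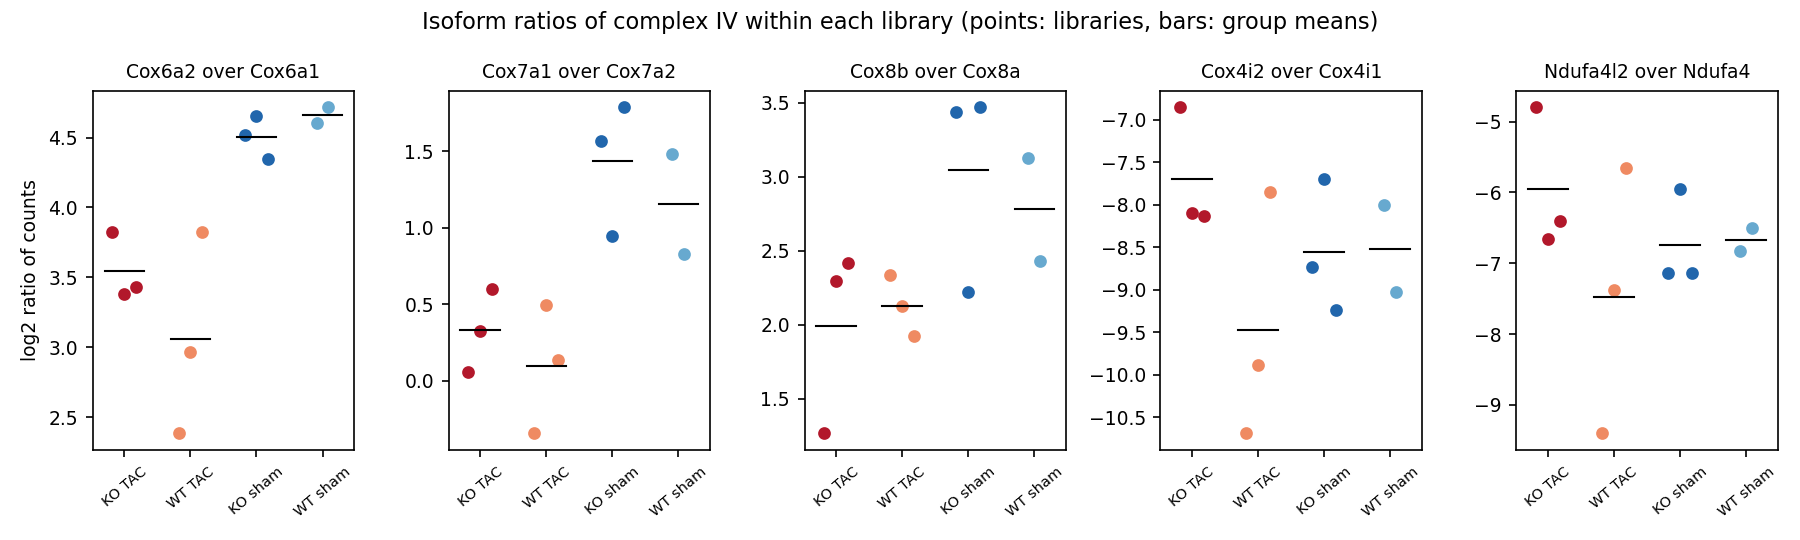
Log2 ratio of the counts of 5 isoform pairs of complex IV within each library, with a bar for each group mean. In the Cox6a2 and Cox7a1 panels all 6 TAC libraries lie below all 5 sham libraries, and in the other panels the groups overlap.

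The members that fell had long coding sequences. Of 14 members with a longest coding length of 800 bases or more, 10 fell, against 4 of 29 with 400 to 800 bases and 0 of 40 under 400 bases. Within the core it was 7 of 9 with 800 bases or more and 3 of 12 with 400 to 800. Within the accessory class it was 3 of 5, 1 of 15 and 0 of 39 from long to short. Core subunits are longer, with a median coding length of 768 bases against 333 for accessory subunits, so class and length cannot be told apart in the counts over all members. Among all protein-coding genes 1060 of 10393 with 800 bases or more were lower, 151 of 2259 with 400 to 800 and 19 of 634 under 400. These bins were chosen after values were seen and carry no test, and their counts depend on the spread between libraries as well as on the size of the change.

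Across the 83 members Spearman's rho of the adjusted log2 fold change with coding length was -0.57, and across 13286 protein-coding genes -0.17. In KO it was -0.40 over members and -0.05 over protein-coding genes, and in WT -0.60 and -0.25. In KO against WT it was 0.50 after TAC and -0.63 after sham over the members, and 0.30 and -0.15 over protein-coding genes. All genes of a comparison share the same libraries, and these values are descriptions. Under the ribosomal protein covariate 48 of 59 accessory and 18 of 21 core subunits were called lower after TAC, against 8.76% of all genes. The share itself averaged 2.37% in KO TAC and 3.95% in WT TAC, against 1.31% in KO sham and 1.04% in WT sham. Within groups the lowest share went with the lowest accessory sum. These counts thus describe TAC against sham at equal share, not the whole change after TAC.

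**Figure D5:**
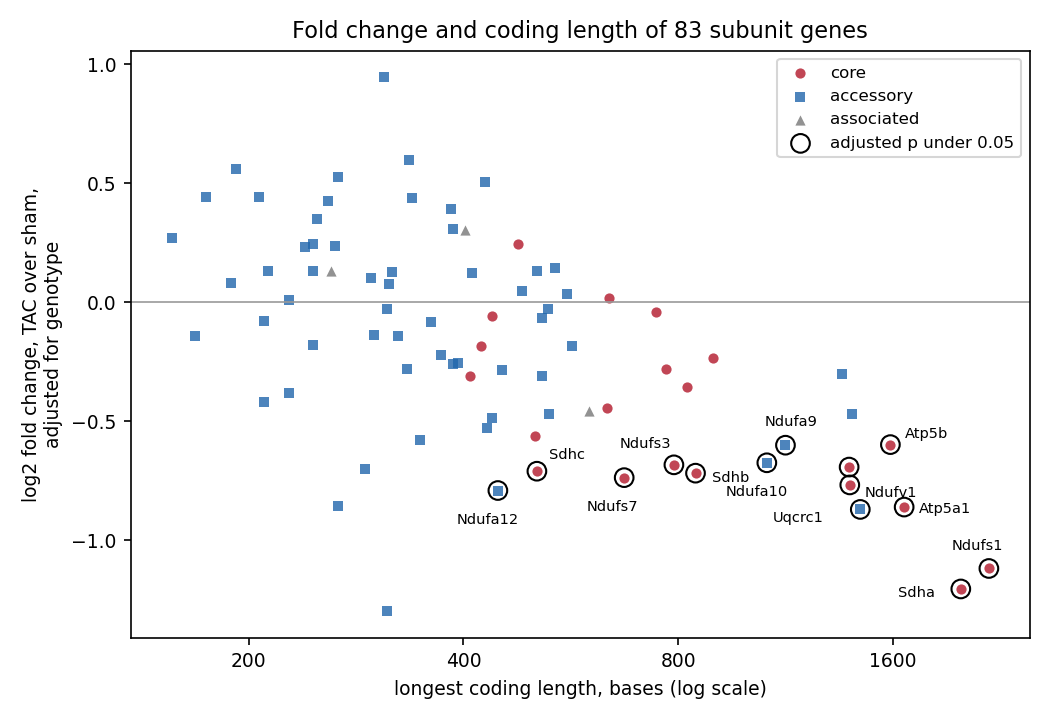
Log2 fold change of TAC over sham, adjusted for genotype, against the longest coding length (log scale) of the 83 tested members, with black rings on those with an adjusted p under 0.05. The rings lie to the right, with 10 of the 14 at 800 bases or more and none under 400.

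Other genes of the pathway were counted from lists by role. In the adjusted fit 8.96% of all genes were lower and 10.6% higher, which holds beside each list count of that fit below. Of 8 electron carriers and subunits outside the symbol rule, 4 fell after TAC in the adjusted fit. Etfdh, which passes electrons from fatty acid oxidation to ubiquinone, measured 515, 392 and 329 CPM in KO TAC, 343, 309 and 397 CPM in WT TAC, 826, 964 and 1059 CPM in KO sham, and 942 and 994 CPM in WT sham. It did not overlap and changed by -1.32 (edgeR adjusted p = 0.000473), and it also passed in KO (-1.20, adjusted p = 0.0233) and in WT (-1.47, adjusted p = 0.014). Etfa and Etfb, the electron carrier that feeds it, both changed by -0.94, and Dhodh, an enzyme of pyrimidine synthesis that reduces ubiquinone, by -0.83. Cyc1, Cycs and Ndufab1 ran from -0.37 to -0.19 and did not pass.

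Of the 13 subunits encoded by mitochondrial DNA, 7 were tested and all 7 fell in the adjusted fit, from -1.45 (mt-Nd2, adjusted p = 0.00353) to -1.07 (mt-Cytb, adjusted p = 0.0136). The 6 others were listed at 0 or 1 count in every library, though the heart uses them, and no level is read from that. In WT mt-Nd2 passed alone (-1.64, adjusted p = 0.0422), and in KO none passed. 

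Of 50 tested assembly factors, 12 fell and 0 rose in the adjusted fit, beside 8.96% of all genes lower and 10.6% higher. Examples are Taco1, a translation activator for complex IV (-1.08, adjusted p = 0.00381), Atpaf1, a complex V chaperone (-0.69, adjusted p = 0.0075), and Uqcc1, of complex III (-0.78, adjusted p = 0.00762). Of 13 genes of coenzyme Q synthesis and handling, 7 fell, with Coq10a at -1.04 (adjusted p = 0.000879) and Pdss2 at -1.18 (adjusted p = 0.0023). Among 17 regulators 4 fell and 1 rose. Ppara, a nuclear receptor of fatty acid use, had -0.89 (adjusted p = 0.0116), Esrrg and Esrrb, related receptors of energy genes, -1.05 (adjusted p = 0.0172) and -1.13 (adjusted p = 0.0285), and Tfb2m, a mitochondrial transcription factor, -0.61 (adjusted p = 0.0228), while Hif1a, the hypoxia-inducible factor, rose by 0.87 (adjusted p = 0.0168). Ppargc1a, the coactivator of mitochondrial biogenesis, had -0.37 (adjusted p = 0.417).

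Markers of other cells moved with surgery beside these counts. All 10 macrophage markers rose in the adjusted fit, with summed CPM of 452 to 2487 in TAC libraries, against 234 to 457 in sham libraries. Of 10 fibroblast markers 5 rose (Postn, Col1a1, Col1a2, Col3a1 and Lum) and Gsn, an actin-severing protein, fell, with sums of 3426 to 9124 CPM in TAC libraries, against 1355 to 1903 CPM in sham libraries. Of 9 endothelial markers none passed at an adjusted p, and 1 was higher at an unadjusted p under 0.05, with sums of 1248 to 2340 CPM in TAC libraries, against 988 to 2016 CPM in sham libraries. Cnn1, Tagln and Cspg4 were the 3 that rose among 8 markers of pericytes and smooth muscle. Fat cell markers summed to 40.4 CPM in WT TAC 3 and to 4.53 CPM or less in the other 10 libraries. The part of these cells in the falls was not tested.

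Some counts may be shared with copies elsewhere in the genome. For 28 members some of the longest-coding transcript matched another annotated gene at 98% identity or more over at least 75 bases, and for 8 it was over 50% of the transcript. The 8 were Atp5g2 (88.2%), Ndufs3 (83.8%), Atp5l (72.2%), Atp5h (71.1%), Ndufa12 (71.0%), Atp5f1 (64.6%), Uqcrb (62.8%) and Cox7c (58.3%). No source used here says how reads with several alignments were counted, so values of these 8, with the fallers Ndufs3 and Ndufa12 among them, are uncertain.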

How the data were processed

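RNA of ventricular myocardium from 11 mice was analysed from the raw counts per gene that the authors deposited in 1 table. Per the submitters' processing notes STAR 2.5.1, featureCounts and DESeq2 were used with GRCm38. No source used here says what each tool did, which annotation was used, or how strand and multiply aligned reads were handled. Groups follow the labels for genotype and treatment, with replicates numbered within a group. The labels do not say more of the mice than a title number, so p-values measure the spread between these samples. Title numbers of TAC and sham samples lie in separate ranges, and a batch that follows them cannot be told apart from surgery. The title letter was F in KO TAC 3, WT TAC 1 and KO sham 2 and M in the others, and was used only as a covariate.

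Gene symbols were matched through GENCODE M21 for 46005 of 46517 identifiers. Counts were tested in R 4.3.3 with edgeR 4.0.16: filterByExpr kept 14619 genes, libraries were scaled by TMM, and glmQLFit and glmQLFTest were run with 1 mean per group (7 residual degrees of freedom) or with additive terms for genotype and surgery (8). P-values are 2-sided and adjusted by Benjamini-Hochberg over all genes tested in a contrast, with a threshold of 0.05, and standard errors are approximate, from the fold change and the F statistic. In a library 3 counts equal 0.143 to 0.278 CPM, a limit that covers counting error only. Isoform ratios used log2 of counts plus 0.5. Copies were searched with BLAST 2.17.0 among GENCODE M21 transcripts. The scripts were tested on simulated counts.

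Named were Lmnb2, members called (1 is not reported here), the highest core and accessory member of each complex per length, the 3 largest rises and falls in each genotype, both genes of each isoform pair, and up to 4 called genes of each list. Other genes named, such as the ends of ranges, Esrrb, Lum and Gsn, were chosen after their values were seen. The members, lists and rules were chosen with earlier results of these data known. Alternatives were library totals, TMM on nuclear genes, DESeq2 1.42.0, limma-voom (limma 3.58.1), no filter on low counts, and the ribosomal protein share of all counts or the title letter as a covariate. Others were a prior count of 2, leaving out each library in turn, and leaving out KO TAC 1 and WT TAC 3 together.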

Additional observations from a re-analysis of the deposited data

How the results depend on the processing

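No paired analysis was possible because the labels give the groups no shared replicate numbers. TMM factors ran from 0.724 to 0.957 in sham libraries and from 1.03 to 1.24 in TAC libraries. With library totals in place of TMM the median of all genes in TAC against sham moved to 0.49 in KO, 0.37 in WT and 0.45 adjusted for genotype, and members called were 0 lower in WT, and 2 lower and 2 higher in the adjusted fit, beside 0.910%, 2.63% and 24.5% of all genes. With DESeq2, 10 members were lower in KO and 5 in WT, beside 3.77% and 5.89% of all genes. Without a filter on low counts, 1 was lower in KO and 9 were higher in WT, beside 1.66% and 5.91%, and 6 differed between KO and WT after TAC and 2 in the interaction, beside 0.85% and 0.33%. With a term for the ribosomal protein share, 43 were lower in KO, 0 in WT and 67 in the adjusted fit, beside 4.21%, 1.20% and 8.76%, and the member median was -0.89 in WT, -0.93 in the adjusted fit and -0.082 in the interaction. With that term the adjusted fold change of Ndufb9 was -1.02, Atp5h -0.88, Ndufa7 -1.20, Uqcr10 -1.05, Cox7a2 -1.02, Cox4i1 -0.98 and Ndufa4 -1.15, each opposite in sign to the value without it. The share averaged higher after TAC, so values with the term compare TAC and sham at equal share. With the title letter as a covariate 1 member was lower in WT, beside 1.70%. Without both KO TAC 1 and WT TAC 3, the TAC libraries with the lowest accessory sums, 4 were lower and 1 higher in KO, 21 higher in WT and 4 higher in the adjusted fit, beside 7.21%, 7.53%, 16% and 18.7%.

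With 1 library left out, counts of lower members ran from 0 to 2 in KO, from 0 to 2 in WT and from 5 to 16 in the adjusted fit, and counts of higher members in WT from 0 to 2. The Cox6a2 ratio ran from -1.48 to -1.12 and the Cox7a1 ratio from -1.25 to -0.92, with adjusted p of 0.035 to 0.0875 in exact permutation tests of fewer arrangements, and both were at -1.55 and -1.03 (adjusted p = 0.117) without KO TAC 1 and WT TAC 3. The Cox8b ratio ran from -1.06 (without KO sham 2, exact permutation adjusted p = 0.035) to -0.67. The Cox4i2 ratio ran from -0.45 to 0.26 and the Ndufa4l2 ratio from -0.46 to 0.48, so neither has a direction here. Leaving out a WT sham library leaves 1, which is then assumed to vary like the other groups. Of the 14 fallers 14 were still called lower with DESeq2, with limma-voom and with TMM on nuclear genes, and 11 with the title letter. Where no value is given here, the cause of a change with the setting was not tested. Depth limits Cox7b2, Cox6b2 and Atp5l, with 45, 175 and 320 counts in all.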
